A study of Homo sapiens with 3 samples.

Results

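The genes described here encode subunits of 2 families of chromatin remodeller. SMARCA4, SMARCB1, SMARCC1, SMARCC2 and ARID1A belong to SWI/SNF, and CHD3, CHD4, HDAC1, HDAC2 and RBBP4 to NuRD. These 10 genes were taken by name, and ribosome peaks were assigned to them by the RefSeq transcript in the annotation of each peak. In the 3 region classes compared (promoter-TSS, 5′ UTR and exon), 8 of the 10 genes held a peak in at least 1 sample, of 3411 genes with such a peak in the whole series. Ribosome profiling sequences the mRNA fragments that ribosomes shield from nuclease, and a peak is a stretch of the genome where such fragments pile up. HEK293T cells, a human embryonic kidney line that the labels describe as neuronal, were transfected for 24 h with the empty pCDNA3.1 vector, with FLAG-tagged wild-type DDX3X (WT) or with FLAG-tagged DDX3X G325E, a substitution found in medulloblastoma. DDX3X is an RNA helicase that acts in translation initiation. The cells kept their own DDX3X gene, and the constructs were expressed transiently. By the labels, all 3 cultures received harringtonine (2 µg/ml, 90 s), which holds ribosomes at start codons, and then cycloheximide (100 µg/ml), which halts elongating ribosomes, whereas the methods of the study mention cycloheximide alone. There was 1 library per construct, so no difference can be set against a spread between replicates. The 95% intervals below cover counting error over listed peaks only and take peaks as independent, although neighbouring peaks of a gene share its mRNA.

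SWI/SNF complexes use ATP to slide or evict nucleosomes and so open chromatin at enhancers and promoters. NuRD joins the same kind of ATP-driven remodelling to histone deacetylation and is best known for restraining gene activity. Both families act in neural development, and SMARCA4 and ARID1A are among the chromatin genes recurrently mutated in medulloblastoma.

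The lists held 11219 peaks in vector, 19920 in WT and 15680 in G325E, of which 8697, 15515 and 12374 were in the 3 classes. They gave positions only, with no height or read count, so read depth is unknown and a number of peaks is not a measure of translation. Numbers of peaks are therefore given per 1000 listed peaks. The authors' running peak numbers followed genome order, and they skipped 14.8% of numbers in vector, 13.5% in WT and 0% in G325E. What the skipped entries held was not analysed here. Beside or inside the members, 12 numbers were skipped in vector and 7 in WT at CHD3, 4 and 3 at HDAC2, 2 and 3 at SMARCA4 and 1 and 1 at HDAC1, while SMARCB1 and SMARCC1 had 1 each in WT, CHD4 had 2 and RBBP4 1 in vector, and ARID1A and SMARCC2 had 0. DDX3X itself had 0 exon peaks in vector, 31 in WT and 9 in G325E, and peaks from the construct and from the cells' own gene cannot be told apart. Of 9 neuronal markers, NEFL, NEFM and TUBB3 had peaks in every sample and the other 6, RBFOX3 included, had 0. Of 6 genes chosen as markers for the embryonic kidney line, KRT18 and CDH2 had peaks in WT, CDH2 in G325E and none of the 6 in vector.

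The mRNA under the peaks is shown first, because the lists differed in which stretches of it they held and in its base composition. Overlapping peaks of the 3 samples were joined into 83 stretches over the members. Of these, 12 were listed in all 3 samples, 24 in vector and WT, 3 in WT and G325E, 17 in WT only, 6 in vector only and 21 in G325E only. For some of these groups, the lines below give 30 bases at the middle of the longest coding stretch of a gene, 5′ to 3′ on the strand of the gene, in GRCh37. Capitals mark G and C. All lie in coding exons of the GENCODE canonical transcript, from which the exon and the codon of the first base are counted. The first 3 stretches were listed in all samples.
SMARCA4, exon 30, codon 1422, plus strand, chr19:11152076-11152105: tCCaCCCCGaCCaCCaGCaCCCGCaGCCGC
SMARCC1, exon 26, codon 961, minus strand, chr3:47651687-47651716: GCaGCatGGCCaGaaCCCtCaaCaGGCaCa
RBBP4, exon 2, codon 13, plus strand, chr1:33117536-33117565: aaGaaCGaGtGatCaaCGaGGaataCaaaa

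The next 5 were listed in vector and WT and not in G325E. They are shown as 1 example per gene of the 24 stretches that vector and WT share and G325E lacks.
SMARCA4, exon 9, codon 505, plus strand, chr19:11105597-11105626: GCCaCGtaCCatGCCaaCaCGGaGCGGGaG
SMARCB1, exon 4, codon 149, plus strand, chr22:24143215-24143244: aaCCatCaaCaGGaaCCGCatGGGCCGaGa
HDAC1, exon 12, codon 435, plus strand, chr1:32797774-32797803: tCCaaCttCaaaaaaGCCaaGaGaGtCaaa
HDAC2, exon 13, codon 464, minus strand, chr6:114262887-114262916: aGataaatCCaaGGaCaaCaGtGGtGaaaa
RBBP4, exon 10, codon 353, plus strand, chr1:33138257-33138286: aaCaatCCCCaGaaGatGCaGaaGaCGGGC

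In SMARCC1, a stretch of exon 10 was listed in WT only. The SMARCA4 and ARID1A stretches after it were listed in G325E only.
SMARCC1, exon 10, codon 334, minus strand, chr3:47747909-47747938: CGaCaCCaaCaGaatCaCGGaaGaaGaGtG
SMARCA4, exon 33, codon 1572, plus strand, chr19:11170508-11170537: GCGaGGaGaGtGaGGaGGaGGaaGaGGGCG
ARID1A, exon 1, codon 35, plus strand, chr1:27022997-27023026: GCGGGGGGCGaGGCGGCGGCGGCGGCaGCG
These windows of SMARCA4 and ARID1A held 20 and 28 G or C bases of 30. Those of vector and WT held 20 in SMARCA4, 17 in SMARCB1, 11 in HDAC1, 11 in HDAC2 and 16 in RBBP4, and the WT window of SMARCC1 held 15. The windows listed in all 3 samples held 23 in SMARCA4, 18 in SMARCC1 and 11 in RBBP4, so they spanned the range of the others except that of ARID1A.

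As a group, the 10 genes had fewer exon peaks and more promoter-TSS peaks in the G325E list than in the other lists. There were 43 peaks in the 3 classes in vector, 61 in WT and 39 in G325E. Exon peaks numbered 38, 53 and 20 in vector, WT and G325E, promoter-TSS peaks 5, 8 and 16, and 5′ UTR peaks 0, 0 and 3. In the HOMER annotation a peak close to a transcription start is placed in promoter-TSS before other classes are considered, so this class also holds the start of the mRNA and, in HDAC1 and RBBP4, the start codon. Not all of the class is mRNA, however. In G325E, 4 peaks of CHD3, 3 of HDAC2 and 1 of HDAC1 lay outside the canonical transcript. Such peaks were also listed for HDAC2 in vector and WT and for RBBP4 in WT. In each list, 2 promoter-TSS peaks of HDAC2 and 1 of RBBP4 were on the opposite strand. In G325E, 3 of CHD3 and 1 of HDAC1 were on the opposite strand as well, so its larger number of promoter-TSS peaks includes more such peaks.

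**Figure D1:**
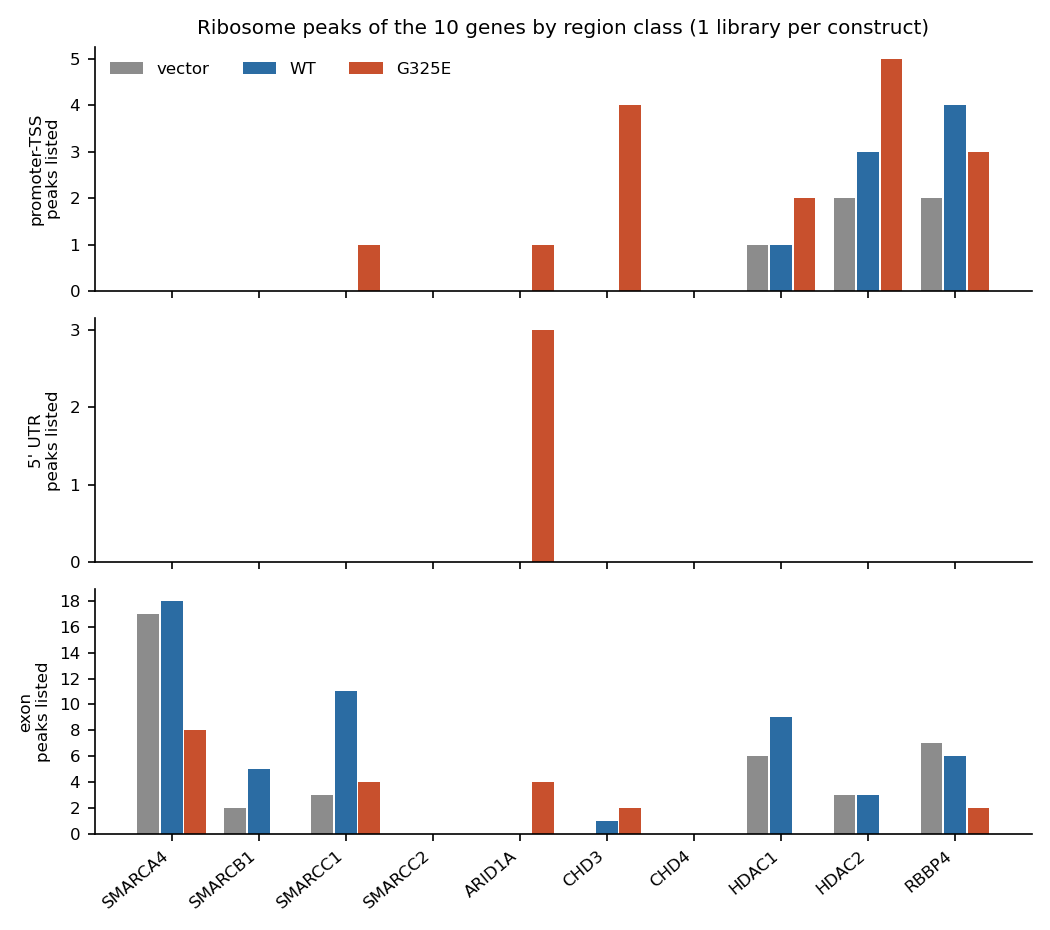
Number of ribosome peaks listed for each of the 10 genes (horizontal axis) in vector, WT and G325E (bar colours), by region class in 3 panels with a linear axis from 0; each bar is 1 library and has no error bar. SMARCA4 had 17, 18 and 8 exon peaks in vector, WT and G325E, and the 3 peaks in 5′ UTR were all ARID1A peaks of G325E.

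Per 1000 listed peaks, the members had 3.83 in vector, 3.06 in WT and 2.49 in G325E. The ratio of G325E to WT was 0.812 (95% interval 0.529 to 1.23) and that of G325E to vector 0.649 (0.410 to 1.03), so neither total differed beyond counting error. For exon peaks alone the ratios were 0.479 (0.271 to 0.815) to WT and 0.377 (0.208 to 0.664) to vector. For promoter-TSS peaks they were 2.54 (1.03 to 6.86) to WT and 2.29 (0.801 to 7.99) to vector. Over all genes, exon peaks numbered 5550 in vector, 10277 in WT and 5575 in G325E, and promoter-TSS peaks 2580, 4210 and 5440. Scaled by the lists, exon peaks were thus fewer and promoter-TSS peaks more in G325E over all genes too. Whether the members' ratios differ from those of all genes was not tested. WT and vector did not differ beyond counting error in exon peaks (ratio 0.786, 0.508 to 1.22) or in promoter-TSS peaks (0.901, 0.260 to 3.50).

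The split between classes showed the same contrast. Exon peaks made up 88.4% (exact binomial interval 74.9 to 96.1) of the members' peaks in vector, 86.9% (75.8 to 94.2) in WT and 51.3% (34.8 to 67.6) in G325E. The promoter-TSS share was 11.6% (3.89 to 25.1), 13.1% (5.84 to 24.2) and 41.0% (25.6 to 57.9) in the same order. For 5′ UTR the share was 0 of 43 peaks in vector and 0 of 61 in WT, and 7.69% (1.62 to 20.9) in G325E. From WT to G325E the exon share differed by -35.6 percentage points (Newcombe interval -52.0 to -17.3) and the promoter-TSS share by 27.9 points (10.3 to 44.7). By covered bases in place of peaks, the exon difference was -22.6 points to WT and -20.4 to vector, and the promoter-TSS difference 13.2 and 11.0. Over all genes the exon share was 63.8% in vector, 66.2% in WT and 45.1% in G325E, a difference of -21.2 points from WT to G325E, and the promoter-TSS share was 29.7%, 27.1% and 44.0%. The members thus carried larger exon shares than the whole lists in vector and WT, and in G325E their interval held the share of all genes. Whether the members' difference from WT to G325E is larger than that of all genes was not tested.

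**Figure D2:**
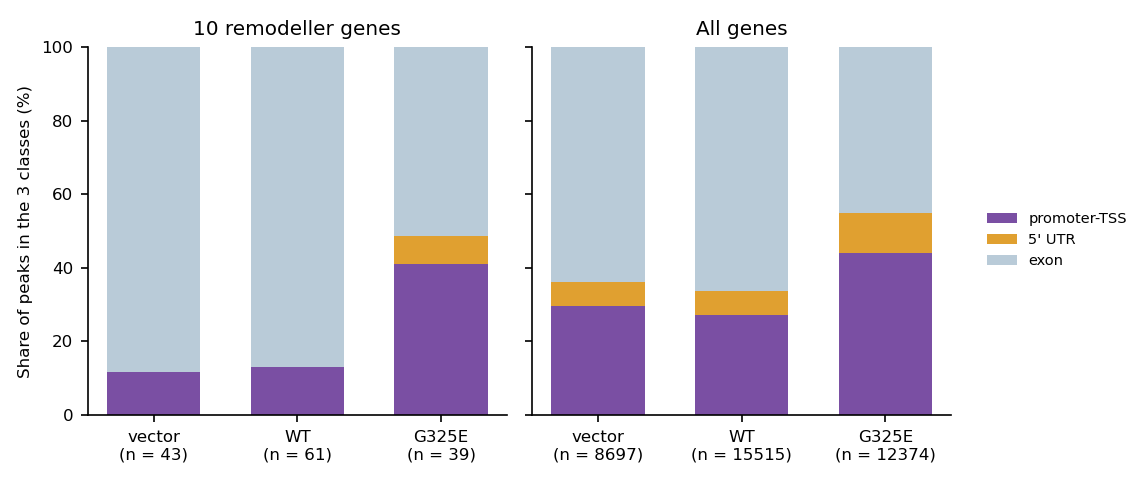
Share of promoter-TSS, 5′ UTR and exon peaks (percent of the peaks in these 3 classes) in vector, WT and G325E, for the 10 genes (left) and for all genes (right); n is the number of peaks and each bar is 1 library. Exon peaks of the 10 genes made up 88.4%, 86.9% and 51.3%, against 63.8%, 66.2% and 45.1% over all genes.

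The SWI/SNF members and the NuRD members did not divide alike among the classes. All 22 SWI/SNF peaks in vector and all 34 in WT were exon peaks, against 16 of 21 (76.2%) in G325E. Of the NuRD peaks, exon peaks were 16 of 21 in vector, 19 of 27 in WT and 4 of 18 in G325E, while the promoter-TSS share was 23.8%, 29.6% and 77.8%. Over all genes the promoter-TSS share was 29.7%, 27.1% and 44.0%. Of the 14 NuRD promoter-TSS peaks in G325E, CHD3 gave 4 and HDAC2 5. Each of these was on the opposite strand or outside the canonical transcript, and skipped peak numbers in vector and WT bear most on these genes. The scaled number of NuRD exon peaks in G325E was 0.267 of that in WT (0.0662 to 0.805) and 0.179 of that in vector (0.0435 to 0.555). For SWI/SNF exon peaks the ratios were 0.598 (0.308 to 1.11) and 0.520 (0.255 to 1.04), which do not differ from 1 beyond counting error. The difference between the families was not tested, nor was that of either family from all genes.

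Of the 8 members with at least 5 peaks in G325E and WT together, ARID1A and CHD3 were at least 2-fold higher in G325E in scaled peak number. Over all 2134 genes with as many peaks, 25.5% were. HDAC1 was at least 2-fold lower, as were 14.1% of all genes. Against vector, 0 of 7 members were at least 2-fold higher (15.3% of 1724 genes) and 3 were lower, SMARCA4, HDAC1 and RBBP4 (20.3% of genes). ARID1A and CHD3 had 8 and 6 peaks in G325E against 0 in vector. With the floor of 3 peaks for a count of 0, they were 1.91-fold and 1.43-fold higher. From vector to WT, SMARCC1 was at least 2-fold higher of 6 members (8.35% of 1832 genes) and 0 were lower (16.8%). The counts against WT were close to the shares of all genes. The 3 genes lower against vector were a larger share of the members than of all genes, and of the 3 the interval of SMARCA4 alone left out a ratio of 1. Over genes with at least 5 peaks in the samples together and a ratio that could be given (a count of 0 set to the floor of 3 peaks), the median log2 ratio of G325E to WT was 0.15 for 1985 genes and -0.52 for the 8 members. That of G325E to vector was 0.00 for 1598 genes and -0.48 for 7 members. The comparisons share samples, so they are not independent of each other.

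SMARCA4, the ATPase that drives SWI/SNF, had the most peaks of the members in vector (17) and WT (18), and 8 in G325E, as many as ARID1A. All were exon peaks on the strand of the gene (GRCh37 chr19:11071608-11190102), and all lay past the first 25% of the coding sequence, the earliest at a position of 0.253 on a scale from 0 at the start codon to 1 at the stop codon. In vector, 24 of 1865 genes with a peak had more. Per 1000 listed peaks the values were 1.52, 0.904 and 0.510 in vector, WT and G325E. The ratio of G325E to vector was 0.337 (0.126 to 0.823), that of G325E to WT 0.565 (0.212 to 1.36) and that of WT to vector 0.596 (0.290 to 1.23), so only the first differed from 1 beyond counting error.

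The SMARCA4 peaks fell into blocks, and the lists differed by block. In exon 8 there were 3 peaks in vector, 2 in WT and 3 in G325E, covering 150, 165 and 157 bases. In exon 30 there were 2 in each sample, covering 250, 242 and 239 bases. Between them, exons 9 to 14 held 12 peaks (469 bases) in vector and 11 (468 bases) in WT, but 0 in G325E. Exons 33 to 35 held 0 peaks in vector, 2 in WT and 3 in G325E. The stretches at the start and near the end of the covered region were therefore listed in all 3 samples with nearly the same length, and the middle block was missing from G325E. Single peak numbers were skipped inside the middle block, 1 in vector and 2 in WT. Mean GC content in the 31 bases around the peak was 58.3% in vector and 59.5% in WT in exons 9 to 14, against 63.4% in exon 8 and 62.9% in exon 30 of G325E, and its part in the difference was not tested. Counted with only those transcript identifiers that the lists themselves pair with a gene, SMARCA4 had 15, 14 and 3 peaks.

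SMARCB1, a core subunit whose loss defines rhabdoid tumours, had 2 peaks in vector, 5 in WT and 0 in G325E, all in exons. In WT, 3 lay in exon 3 and 2 in exon 4, and the 2 of vector lay in exon 4. With 3 peaks as the floor for a count of 0, G325E was 1.31-fold lower than WT, but the counting interval of the ratio, 0 to 1.39, held no change. No fold is given against vector because both counts are at or under the floor.

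SMARCC1, a scaffold subunit, had 3 peaks in vector, 11 in WT and 5 in G325E. All 3 lists held peaks in exon 26, in which 4 peaks were listed in WT, 3 in vector and 2 in G325E. WT alone had peaks in exon 10 (3), exon 23 (1) and exon 24 (3). G325E alone had a promoter-TSS peak, an exon 1 peak and 1 peak in a later exon, and it had 6 intron peaks outside the classes compared, against 1 in vector and 0 in WT. The ratio of WT to vector was 2.07 (0.546 to 11.5) and that of G325E to WT 0.577 (0.157 to 1.80), both within counting error. Mean GC content of its peaks was 57.0% in vector, 49.3% in WT and 66.5% in G325E. Its paralogue SMARCC2, the other scaffold subunit, had 0 peaks of any class in each list.

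ARID1A, the DNA-binding subunit that marks the canonical BAF form of SWI/SNF, had 0 peaks in vector, 0 in WT and 8 in G325E. One was a promoter-TSS peak, 3 were 5′ UTR peaks and 4 were exon peaks. On the canonical transcript all 8 lay in exon 1, 4 in the untranslated part and 4 in the coding part, between positions 0.0169 and 0.0773. One of them, 281 bases long, covered the start codon. Together they covered 829 bases of an exon of 1526 bases with 77.0% GC, the coding sequence of the gene as a whole having 59.8%. On the strand of the gene were 6 of the peaks, and 2 were on the opposite strand. With the floor of 3 peaks, ARID1A was 3.39-fold higher in G325E than in WT and 1.91-fold higher than in vector. The lower limits of the counting intervals, which use no floor, were 2.17 and 1.22. No peak numbers were skipped next to ARID1A in either of the other lists. Mean GC content of its peaks was 81.0%, and the part of base composition in this difference was not tested.

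CHD3, an ATPase of NuRD, had 0 peaks of the 3 classes in vector, 1 in WT and 6 in G325E. Vector also had 2 intron peaks just past the same first exon, and G325E had 1. Of the 6, 4 were promoter-TSS and 2 were exon peaks, with 3 on the opposite strand, and the WT peak was an exon peak. The exon peaks lie at the first exon of another RefSeq transcript, outside the exons of the canonical one. The 4 promoter-TSS peaks, which include the 3 on the opposite strand, end before the start of the gene. The ratio of G325E to WT was 7.62 with an interval from 0.925 to 351, so it was not resolved at these counts. Here the numbering of the lists also has gaps. Directly before the first CHD3 peak of any class, 7 peak numbers were skipped in vector and 5 in WT, and directly after the last one 5 in vector and 2 in WT, against 0 in G325E. Those entries fall between listed peaks on either side of the gene, and whether they belonged to CHD3 or to a neighbour was not analysed here, so the 0 and the 1 are not known to be complete. CHD4, the other NuRD ATPase and a paralogue of CHD3, had 0 peaks in each list, and in vector 2 numbers were skipped in the interval that spans it.

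HDAC1, one of the 2 deacetylases of NuRD, had 7 peaks in vector, 10 in WT and 2 in G325E. A promoter-TSS peak over the start codon was listed in each sample, with lengths of 111, 112 and 105 bases. Beyond it the lists parted. Vector had 6 exon peaks and WT 9, of which 5 and 8 lay in exons 10 to 13, and G325E had 0, its other peak being on the opposite strand upstream of the gene. With the floor of 3 peaks, exon peaks of HDAC1 were 2.36-fold lower in G325E than in WT and 2.80-fold lower than in vector. The counting intervals of these ratios, which use no floor, had upper limits of 0.644 and 0.608. Over the 3 classes the ratio to WT was 0.254 (0.0271 to 1.19) and to vector 0.204 (0.0207 to 1.07). In WT, 3 further peaks were annotated to its transcription termination site.

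HDAC2, the second deacetylase, had 5 peaks in vector, 6 in WT and 5 in G325E, but their classes differed. Exon peaks were 3, 3 and 0, all near the stop codon in exons 12 to 14, and promoter-TSS peaks were 2, 3 and 5. Of the promoter-TSS peaks, 2 in each list were on the opposite strand, among them all that lay within the canonical mRNA. Those on the strand of the gene, in WT and G325E, lay outside the canonical transcript. The ratio of the totals was 1.06 (0.256 to 4.16) for G325E to WT. In G325E a further peak of 119 bases over the start codon was annotated to a non-coding transcript of the locus and so stands outside the 3 classes. Skipped numbers touch this gene as well. Within it, 3 were skipped in vector and 3 in WT, of which 2 in each lay between listed peaks on either side of that start codon.

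RBBP4, a histone-binding WD40 protein shared by NuRD and other complexes, had 9 peaks in vector, 10 in WT and 5 in G325E. Each list held a promoter-TSS peak over the start codon, and each held peaks in exon 2, numbering 3 in vector, 2 in WT and 2 in G325E. In exons 9 to 11 there were 4 peaks in vector and 4 in WT and 0 in G325E. The ratio of G325E to WT was 0.635 (0.170 to 2.04) and to vector 0.398 (0.105 to 1.32), both within counting error. HDAC1 and RBBP4 thus shared a layout, with a peak over the start codon in each sample and peaks in late exons in vector and WT and not in G325E. HDAC2 shared the late exons. At the beginning of its mRNA, however, its peaks of the 3 classes were on the opposite strand, and those on its own strand were annotated as non-coding. Of the 143 member peaks, the 31 bases at the midpoint were found more than once in the genome for 8, all in HDAC1 and RBBP4, so those 8 are uncertain.

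**Figure D3:**
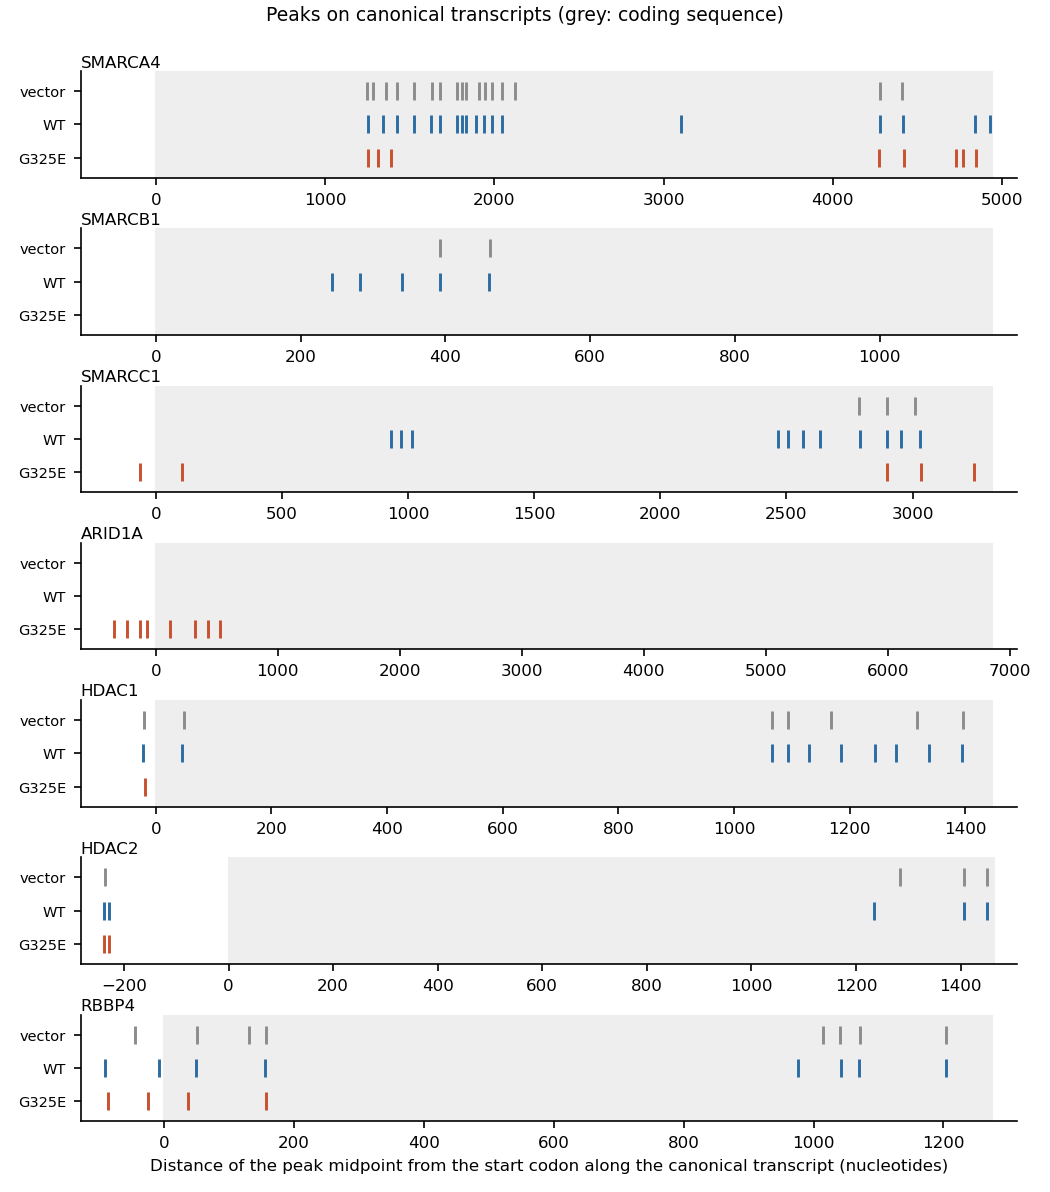
Midpoints of the listed peaks of 7 members on the canonical transcript, in nucleotides from the start codon (horizontal axis, own scale for each gene; grey marks the coding sequence), with 1 line of ticks each for vector, WT and G325E. CHD3, CHD4 and SMARCC2 had no peak on the canonical transcript, the 8 ARID1A ticks are all in G325E, and in HDAC1, HDAC2 and RBBP4 the ticks of late exons are in vector and WT.

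Across the members, the position of the peaks along the mRNA differed mainly by exon. Of the peaks within canonical exons, 4 of 41 (9.76%) in vector and 6 of 57 (10.5%) in WT lay in exon 1, against 15 of 28 (53.6%, 33.9 to 72.5) in G325E, of which ARID1A gave 8. Over all genes the shares were 28.3%, 26.0% and 56.6%. Within the coding sequence there were 38 peaks in vector, 52 in WT and 18 in G325E, with median positions of 0.408, 0.740 and 0.274. The share in the first 50% was 55.3% (38.3 to 71.4), 46.2% (32.2 to 60.5) and 55.6% (30.8 to 78.5), which did not differ beyond counting error. Without SMARCA4 the shares were 28.6%, 32.4% and 70.0%, further apart than with this gene. The last rests on few peaks, 4 of them neighbours in exon 1 of ARID1A, and whether it differs beyond counting error was not tested. Over all genes they were 50.1%, 47.7% and 62.8%.

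The overlap of the members' peaks was highest between vector and WT. Of the 43 vector peaks, 86.0% were overlapped by a WT peak and 30.2% (17.2 to 46.1) by a G325E peak. Of the 61 WT peaks, 67.2% were overlapped by vector and 27.9% (17.1 to 40.8) by G325E. Of the 39 G325E peaks, 48.7% were overlapped by WT and 38.5% by vector. For all genes, 80.6% of vector peaks were overlapped by WT and 51.7% by G325E, 43.6% of WT peaks by vector and 37.4% by G325E, and 6190 of 12374 G325E peaks by WT and 37.4% by vector. The G325E peaks of the members were thus overlapped about as often as those of all genes, whereas the members' WT peaks were overlapped by vector at 67.2% against 43.6%, a difference that was not tested.

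Base composition moved with these differences. Mean GC content in the 31 bases around the peak was 56.7% (SD 12.5 over 43 peaks) in vector, 57.4% (SD 12.9 over 61) in WT and 71.9% (SD 11.0 over 39) in G325E. Over all genes it was 62.5%, 61.8% and 72.5%. Among exon peaks of the members it was 54.7%, 55.1% and 68.4%, while among promoter-TSS peaks it was 72.3%, 72.2% and 73.8%, nearly alike in the 3 samples. The 10 WT exon peaks that a G325E peak overlapped had 65.5% (SD 14.9) and the 43 others 52.7% (SD 10.1). In vector, the 9 overlapped exon peaks had 58.8% (SD 11.7) and the 29 others 53.4% (SD 11.5). These SDs are spreads over single peaks, and whether the means differ was not tested. Among member peaks with 50 to 75% GC, the exon share differed by -29.3 points between G325E and WT and by -30.4 between G325E and vector, and the 5′ UTR share by 0 in both. The part of GC content in the result was not tested.

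**Figure D4:**
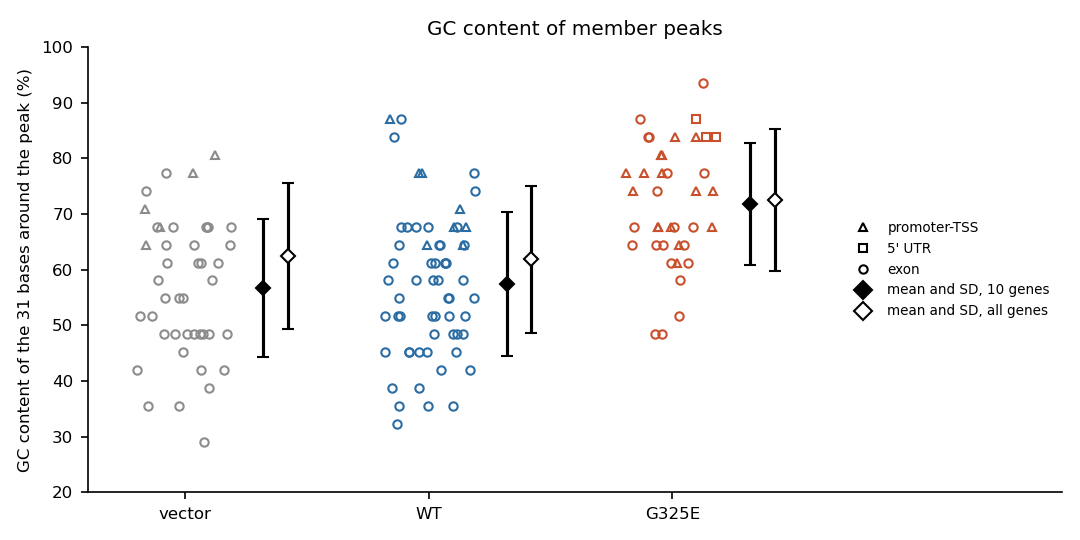
GC content (percent) of the 31 bases of the genome around the midpoint of each peak of the 10 genes in vector, WT and G325E, with symbols for the region class; filled and open diamonds with bars are the mean and SD over the peaks of the 10 genes and of all genes. The means of the 10 genes were 56.7%, 57.4% and 71.9%, and those of all genes 62.5%, 61.8% and 72.5%.

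The other subunits of both families were counted in the same way. Of 24 other SWI/SNF genes 10 had a peak, with 26 peaks in vector, 44 in WT and 55 in G325E and exon shares of 76.9%, 90.9% and 47.3%. PHF10, a subunit of the PBAF form, had 0 peaks in vector, 0 in WT and 9 in G325E, all promoter-TSS. BCL7A had 0, 0 and 9 (7 promoter-TSS), and SS18L1, a subunit of the neuronal form, had 2, 0 and 6, all promoter-TSS. Other genes had their most peaks in WT, with 0, 6 and 0 exon peaks in DPF2, a histone reader, 1, 5 and 0 in SS18 and 2, 9 and 2 in SMARCE1, an HMG-domain subunit. SMARCD2 had 0, 5 and 6 peaks and ACTB, which also encodes cytoplasmic actin, 17, 15 and 19. Of 9 of these genes with at least 5 peaks in G325E and WT together, 4 were at least 2-fold higher in G325E and 1 was lower, against 25.5% and 14.1% of all genes. Against vector, 3 of 6 such genes were higher in G325E and 0 were lower (15.3% and 20.3% of all genes).

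Of 10 other NuRD genes 6 had a peak, with 34, 38 and 41 peaks and exon shares of 32.4%, 52.6% and 2.44% in vector, WT and G325E. MTA2, a scaffold of the deacetylase module, had 10, 10 and 13 promoter-TSS peaks but 0, 15 and 0 exon peaks. MBD3, the methyl-CpG-binding-domain subunit, had 6, 3 and 0 exon peaks and 4, 1 and 7 promoter-TSS peaks. GATAD2A had 5, 2 and 0 peaks, all in exons, and RBBP7, the paralogue of RBBP4, had 9, 7 and 10 peaks, with 0 in exons. MTA1 and CDK2AP1 had peaks in G325E only, 5 and 6. Of 5 of these genes with at least 5 peaks in G325E and WT together, MTA1, MBD3 and CDK2AP1 were at least 2-fold higher. In this comparison 0 were lower, and over all genes 25.5% were higher and 14.1% lower. Against vector, 0 of 6 such genes were higher in G325E and GATAD2A was lower (15.3% and 20.3% of all genes). Fewer exon peaks in G325E than in WT were thus also seen outside the 5 members, in MTA2, MBD3 and GATAD2A, while vector had 0 exon peaks of MTA2 as well. CDK2AP1 had 0, 0 and 1 exon peaks, and MTA1 had 0 in each list. Over all genes the exon share was also lower in G325E (63.8%, 66.2% and 45.1%), as it was among the other SWI/SNF genes, so this was not particular to NuRD.

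Of 20 genes of other remodelling families 8 had a peak, with 10, 42 and 17 peaks and exon shares of 100%, 90.5% and 64.7%. EP400, an ATPase of the INO80 family, had 6, 5 and 0 peaks, RUVBL2 4, 14 and 3 and RUVBL1 0, 5 and 0, all in exons. BAZ2A had 0, 6 and 0, BPTF 0, 4 and 9, and HELLS, a helicase of the SNF2 family, 0, 6 and 3. Of 6 with at least 5 peaks in G325E and WT together, BPTF was at least 2-fold higher in G325E and RUVBL2 lower. Over all genes 25.5% were higher and 14.1% lower. Against vector, of 3 such genes BPTF was higher and EP400 lower (15.3% and 20.3% of all genes).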

How the data were processed

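Ribosome profiling was carried out in 3 cultures, 1 library per construct, placed in groups by their titles. The deposited files are the peak list of each sample, made by the authors from reads trimmed with cutadapt and aligned with BWA 0.5.5 (submitters' processing notes) to hg19, the same build as GRCh37. By the study's methods, duplicates were removed, peaks were called where coverage reached a cut-off of 10, merged and reviewed by eye, and HOMER annotated them (version not given in the sources used here). The lists hold positions and annotation, with no depth.

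The members and lists of genes were chosen with earlier results of these data known. A peak went to the gene of its RefSeq identifier, taken from the lists (93 member peaks) or, where they did not pair it with a gene, from the RefSeq table of gene names (50 peaks), and otherwise to the listed gene name. Another gene name stood in 38 of the 143 member peaks. Peaks of no length counted as 1 base. Positions used canonical transcripts of GENCODE 44 lifted to GRCh37. Named were all 10 members, other subunits and remodellers with at least 5 peaks in a sample, and DDX3X. No test over samples exists with 1 library per construct. Shares have exact Clopper-Pearson intervals, differences of shares Newcombe intervals, ratios exact conditional binomial intervals, and a count of 0 a floor of 3 peaks. Ratios were scaled by all listed peaks. The steps were tested on simulated data. Alternatives were the assignment of genes, strand, peak length, joining, GC content, scaling, covered bases, region class, member genes, fold, position, overlap and GC window. Software was Python 3.11.15, numpy 2.4.6, scipy 1.17.1, pandas 2.3.3 and matplotlib 3.10.9. The sequence of 1 stretch of a member is not reported here.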

Additional observations from a re-analysis of the deposited data

Results flagged for a closer look

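A closer look was taken at member peaks whose strand was not that of their gene, which the comparisons above count with the others and do not compare by strand, because their share in G325E lay above that in the vector control. Over all classes, introns included, they were 5 of 55 member peaks (9.09%) in vector, 8 of 80 (10.0%) in WT and 18 of 55 (32.7%, exact interval 20.7 to 46.7) in G325E. They were found in HDAC2 and RBBP4 in vector, in these and SMARCA4 in WT, and in ARID1A, CHD3, HDAC1, HDAC2, RBBP4 and SMARCC1 in G325E. Within the 3 classes the shares were 6.98%, 4.92% and 23.1%, and over all genes 13.4%, 13.5% and 21.8%. The GC content of member peaks, 56.7%, 57.4% and 71.9% on average, and the skipped peak numbers moved with this share, and their part in it was not tested.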

How the results depend on the processing

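No paired analysis was possible because each construct had 1 library. Of 222 values under alternatives for 30 results, 203 kept to the interval of the result or, for a count of members, to within 1.5-fold of it. The others follow, and the cause was not tested. Scaling by the median gene ratio moved the ratio of WT to vector in member peaks from 0.799 to 1.29, across 1 and out of its interval. With classes from the canonical transcript, the 5′ UTR share in G325E exceeded that in WT by 31.8 points and that in vector by 32.6, since promoter-TSS peaks inside the mRNA then count as 5′ UTR. Members at least 2-fold higher in G325E than in WT numbered 1 on the gene strand only. Members at least 2-fold lower numbered 2 without peaks under 20 bases, 2 with peaks joined, 2 with the identifiers the lists pair with a gene, 4 with the median scaling and 4 at 1.5-fold. Against vector, members higher in G325E numbered 2 with the median scaling and 1 at 1.5-fold. Members lower against vector, 3 in the main result, changed within the 1.5-fold limit. They numbered 2 by listed gene name and with the median scaling, and 4 without short peaks and with peaks joined. From vector to WT, members higher numbered 0 by listed gene name, 0 with peaks joined and 2 with the median scaling, and members lower 1 without short peaks and 2 at 1.5-fold. The share of vector coding peaks in the first 50% was 76.2% at 50 to 75% GC and 28.6% without SMARCA4, and mean GC content in WT was 59.9% over the peak itself. Leaving out CHD3 and HDAC2, and assigning peaks by the lists' own identifiers, were chosen after seeing the data. Without CHD3 and HDAC2 the promoter-TSS share differed by 15.7 points between G325E and WT and the exon share by -26.5.

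The lists hold no heights, so they cannot show how many ribosomes a peak stands for. A count of 0 peaks does not show that a gene had no reads, since the authors applied a coverage cut-off. Skipped peak numbers bear most on CHD3 and HDAC2.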
